A study of Mus musculus with 5 samples.

Results

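Tumour endothelial cells, the cells that line blood and lymphatic vessels, made up 583 of the 17771 cell barcodes (3.28%) of a single-cell RNA-seq study of mouse pancreatic adenocarcinoma. Members were chosen by the measured levels of these genes: a barcode was taken as endothelial when Pecam1, Cdh5, Plvap and Egfl7 together reached 10 UMIs per 10000 with at least 3 of these 4 genes detected, when Dcn was below 10 UMIs per 10000, and when Epcam, Cldn4 and Cldn7 together were below 10 UMIs per 10000. A UMI (unique molecular identifier) tags a captured RNA molecule. Levels are given as CPM, the UMIs of a gene summed over the cells of a library per 1000000 UMIs of those cells. Unless said otherwise, that total counts only the genes measured in every KPPC library, as set out below. The libraries came from 2 KPPCN tumours, with 33 endothelial cells, and 3 KPPC tumours, with 550. All mice were 7 to 8 weeks old and had advanced pancreatic tumours. KPPC is the usual name for mice whose pancreatic tumours arise from alleles, deletion of Trp53 among them, recombined by a Cre recombinase of the pancreatic epithelial lineage, and the added N stands for Nsdhl, a gene of cholesterol synthesis; the labels give the genotype names without the alleles. Such a Cre is not directed at endothelium, and whether any endothelial cell was recombined was not tested. Tumours were dissociated, dead cells were removed and CD45-positive blood cells were depleted before capture. The labels number the KPPC tumours, whereas the cell names carry the codes C3, D3 and H2, so these codes are used for the KPPC libraries, and KPPCN 1 and KPPCN 2 for the others.

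Endothelial cells hold the vessel wall together through junctions of VE-cadherin (Cdh5) and claudin-5 (Cldn5), and they respond to VEGF through the receptors encoded by Kdr, Flt1 and Flt4. Growing sprouts are led by tip cells, whose number is restrained by Dll4 and Notch signalling, while arterial, capillary, venous and lymphatic endothelium each keep a gene programme of their own. Lymphatic identity depends on the transcription factor Prox1. Pancreatic adenocarcinoma is known for dense stroma and few perfused vessels, so its endothelium is a small part of the tumour.

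Endothelial cells were less deeply covered than their tumours as a whole in 4 of the 5 libraries. Their median depth was 2199 and 8426 UMIs in KPPCN 1 and KPPCN 2, and 9208, 8747.5 and 9308 UMIs in KPPC C3, D3 and H2, where all barcodes had medians of 2006 and 20904 UMIs in the KPPCN libraries and of 17391 to 19052 UMIs in the KPPC libraries. The 3 endothelial cells of KPPCN 1 held 5289 UMIs in all and the 30 of KPPCN 2 held 387733, against 1901032 to 2502986 in the KPPC libraries. In KPPCN 1 a count of 0 therefore allows a level of up to 582 CPM, and in KPPCN 2 up to 8.01. These limits are 3 counts of the 5154 and 374647 endothelial UMIs in genes measured in every KPPC library. One cell gave 42.3% of the endothelial UMIs of KPPCN 1 and 13.4% of those of KPPCN 2. The KPPC libraries held no UMI of 275 (C3), 418 (D3) and 1036 (H2) of the 12579 genes shared by both genotypes, while every other gene was seen in at least 37 cells of a library; such a gene was treated as not measured there, and tests used the 11413 genes measured in all 3 KPPC libraries. Across libraries 27 barcodes occurred more than once, and 2 endothelial cells carried one of these.

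The genes that chose the cells are given as a description. Pecam1, an adhesion molecule of endothelial contacts, had 582 CPM in both KPPCN 1 and KPPCN 2, and 632, 839 and 701 in KPPC C3, D3 and H2. Cdh5 had 194 CPM in KPPCN 1 (a single UMI) and 657 in KPPCN 2, and 607, 1076 and 752 in the KPPC libraries. Plvap, which forms the diaphragms of fenestrated and tumour vessels, had 1164 and 641 CPM in the KPPCN libraries and 1046, 1663 and 1938 in the KPPC libraries, and Egfl7, a protein secreted by endothelium, had 2134 and 2194 CPM in the KPPCN libraries and 1667, 1803 and 1963 in the KPPC libraries. Plvap was lower in KPPCN 2 than in every KPPC library, while Egfl7 was higher. All 4 genes were detected in 516 cells and 3 of them in 67. The 3 cells closest above the threshold had summed levels of 11.5, 12.6 and 12.8 UMIs per 10000, the 3 closest below had 8.59, 7.76 and 4.67, and the median over the chosen cells was 49.6. A further 113 barcodes, 82 of them in KPPCN 1, reached the sum with fewer than 3 of the genes, and 17 met every condition but that on Dcn.

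Kdr, a marker that took no part in the choice, was high in the endothelial cells of every library. It was detected in 513 of the 583 cells (88.0%), with 388 and 435 CPM in KPPCN 1 and KPPCN 2 and 467, 507 and 545 in KPPC C3, D3 and H2. In Dcn-high stroma, the fibroblast-rich part of the same tumours (7639 barcodes with Dcn at 10 UMIs per 10000 or more and the endothelial and epithelial sums below 10), Kdr had 7.71 to 24.2 CPM. Markers of other cell types were mostly, though not always, lower in the endothelial cells than in other barcodes. The 6 fibroblast markers summed to 1358 and 368 CPM in the KPPCN libraries and to 244 to 731 in the KPPC libraries, against 5413 to 15671 in all other barcodes of the 5 libraries. The 7 epithelial markers summed to 194 and 77.4 CPM in the KPPCN libraries and 258 to 346 in the KPPC libraries. Mural markers, which belong to the pericytes wrapped around vessels, summed to 194 and 5.34 CPM in the KPPCN libraries and 54.4, 685 and 166 in KPPC C3, D3 and H2, against 183 and 124 CPM in the other barcodes of the KPPCN libraries and 174, 224 and 199 in those of the KPPC libraries. They were thus higher than in the other barcodes in KPPC D3 and KPPCN 1, as were the 3 acinar markers in KPPCN 1, with 1164 against 661 CPM. In 26 endothelial cells markers of mural, blood, acinar or islet cells together reached 10 UMIs per 10000. These were 3 in KPPCN 1, 0 in KPPCN 2, and 5, 10 and 8 in KPPC C3, D3 and H2. Blood cells are poorly covered by this count, since 1 of 8 leukocyte and 0 of 3 erythroid markers were measured in every KPPC library.

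**Figure D1:**
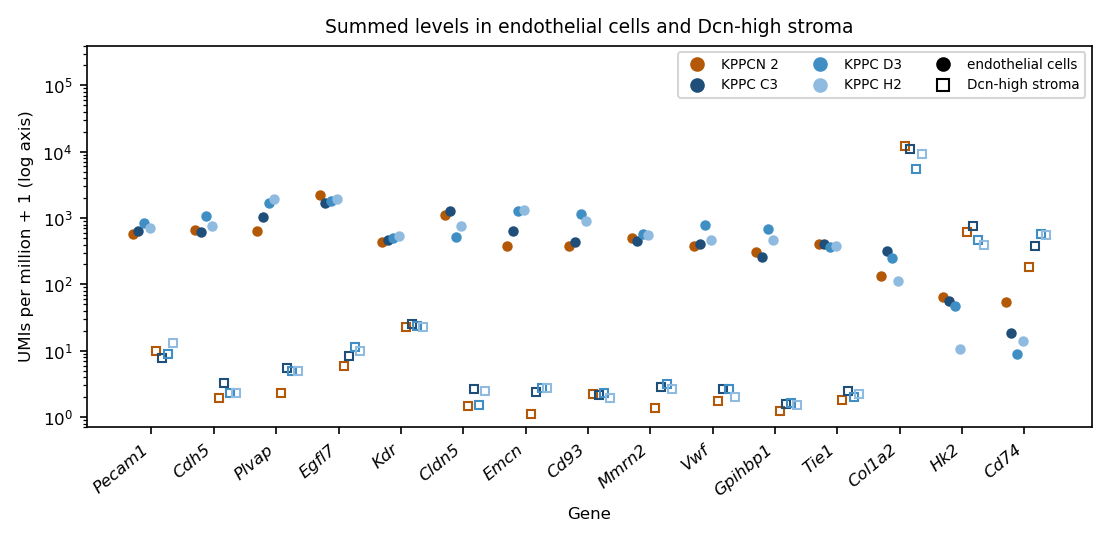
Summed CPM plus 1 (log axis) of 15 genes in the endothelial cells (filled circles) and in the Dcn-high stroma (open squares) of KPPCN 2 and the 3 KPPC libraries; KPPCN 1, with 3 endothelial cells, is not drawn. Endothelial genes lie between 258 and 2194 in the endothelial cells and at or below 24.2 in stroma, whereas Col1a2, Hk2 and Cd74 lie lower in the endothelial cells than in stroma in every library. Pecam1, Cdh5, Plvap and Egfl7 are drawn as a description only, since the rule chose both kinds of cell by these genes and so set their gap.

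Endothelial cells were scarcer in both KPPCN libraries than in any KPPC library. They formed 0.0491% of barcodes in KPPCN 1 (3 of 6111, exact 95% binomial interval 0.0101 to 0.143%) and 1.44% in KPPCN 2 (30 of 2086, 0.972 to 2.05%). In the KPPC libraries they formed 5.0% in C3 (189 of 3777, 4.33 to 5.75%), 4.94% in D3 (162 of 3282, 4.22 to 5.73%) and 7.91% in H2 (199 of 2515, 6.89 to 9.04%). These intervals cover counting error only. The means were 0.744 ± 0.982% (SD, n = 2) for KPPCN and 5.95 ± 1.70% (SD, n = 3) for KPPC, a difference of -5.21 percentage points (two-sided exact permutation test, p = 0.1, the smallest p that 2 against 3 libraries allow). The barcodes behind these shares were unlike by genotype: each KPPC barcode held at least 503 genes, whereas KPPCN barcodes held as few as 43. Among barcodes with at least 500 genes the difference was -5.18 percentage points. After every cell was thinned to 1000 UMIs before the rule was applied, the shares were 0 of 4824 barcodes and 0.302% in the KPPCN libraries. They were 2.12, 2.73 and 4.37% in the KPPC libraries, a difference of -2.92 percentage points (exact permutation p = 0.1).

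The share depends on what else was captured, so the cells were also counted per 100 Dcn-high stroma cells. There were 0.133 and 7.32 endothelial cells per 100 stroma cells in KPPCN 1 and KPPCN 2, and 9.03, 9.56 and 16.8 in KPPC C3, D3 and H2. The groups did not overlap here either, but KPPCN 2 lay close to KPPC C3. The difference was -8.06 cells per 100 (exact permutation p = 0.1), and it was -4.47 without KPPCN 1. Whether fewer vessels, or fewer endothelial cells released and captured, lay behind the shares cannot be told apart, and the depth of KPPCN 1, the lowest of the 5 libraries, moved with the result.

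**Figure D2:**
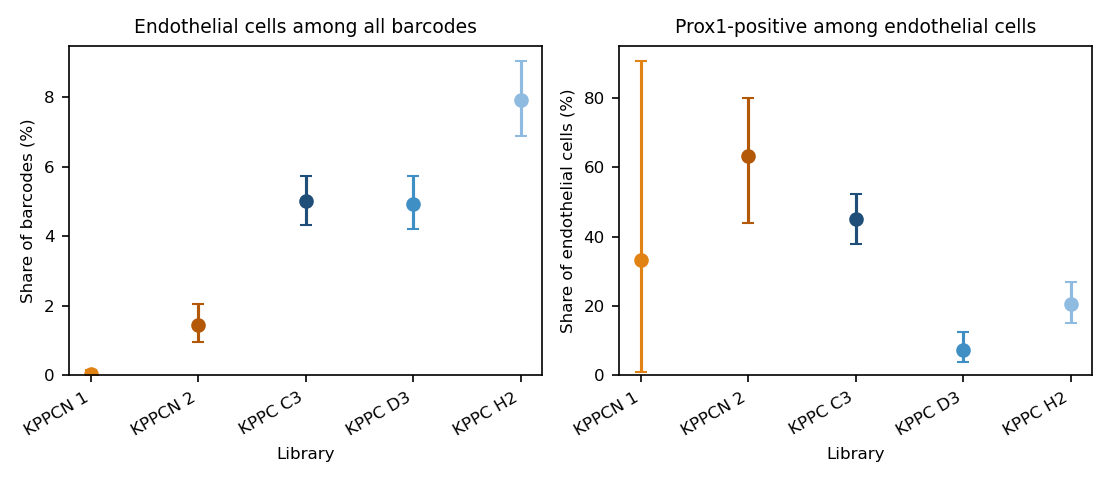
Left, endothelial cells as a percentage of all barcodes in each library. Right, Prox1-positive cells (at least 1 Prox1 UMI per 10000) as a percentage of endothelial cells. Points are single libraries and bars are exact 95% binomial intervals. Both KPPCN shares on the left, 0.0491 and 1.44%, lie below the KPPC shares of 4.94 to 7.91%; on the right KPPCN 2 stands at 63.3% and the KPPC libraries at 7.41 to 45.0%, and the interval of KPPCN 1 spans most of the axis.

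Set against the Dcn-high stroma of the same 4 tumours with at least 20 endothelial cells (KPPCN 2 and the KPPC libraries), the endothelial cells differed in most of the genes tested. Of 11037 genes tested, 2561 were higher (23.2%) and 3146 lower (28.5%) in endothelial cells (limma on log2(CPM + 5), tumour as a block, adjusted p under 0.05), together 51.7% of genes. Scaling by the library total alone gave 4427 higher and 2151 lower and moved the median of all genes to 0.22 on the log2 scale, so small differences depend on the scaling. The 8 genes of the rule were not tested. Genes that accompany them in endothelium differ here because of how the cells were chosen, and a gene could pass the filter on low counts through the endothelial side alone; counts of list members below are therefore descriptions, to be read beside these percentages. With each tumour left out in turn, the number of higher genes lay between 1787 and 2424.

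Among called genes with at least 100 CPM in the endothelial cells of every fitted library, Cldn5 had the largest difference. Cldn5, the claudin of endothelial tight junctions, had 1358 and 1110 CPM in endothelial cells of KPPCN 1 and KPPCN 2 and 1259, 522 and 758 in those of KPPC C3, D3 and H2, against 0.481 to 1.62 in stroma, a log2 difference of 6.94 ± 0.17 (SE, adjusted p = 9.1e-07). Emcn, a sialomucin of capillary and venous surfaces, had 1164 and 382 CPM in the KPPCN libraries and 647, 1269 and 1327 in the KPPC libraries, against 0.0763 to 1.76 in stroma (6.86 ± 0.24, adjusted p = 2.2e-06). Emcn was thus lower in KPPCN 2 than in each KPPC library, and the endothelial and stromal ranges were far apart. Mmrn2, an extracellular ligand of the endothelial lectin Cd93, had 1358 and 507 CPM in the KPPCN libraries and 459, 582 and 549 in the KPPC libraries (6.14 ± 0.09). The other genes with the 15 largest differences were Cd93 (6.54 ± 0.27), Vwf (6.12 ± 0.16), Gpihbp1 (6.04 ± 0.22), Tie1 (5.82 ± 0.07), Gimap6 (5.81 ± 0.10), Apold1 (5.74 ± 0.23), Fam167b (5.66 ± 0.30), Lrg1 (5.51 ± 0.14), Adgrl4 (5.47 ± 0.24), Icam2 (5.40 ± 0.08), Dusp2 (5.37 ± 0.11) and Trp53i11 (5.24 ± 0.18). All 18 tested genes of a pan-endothelial list of 25 were higher, with a median log2 difference of 4.15, against -0.02 over all genes. Of 12 tested junction genes 10 were higher and 0 lower, among them Esam (4.30 ± 0.15), the adhesion molecule F11r (1.83 ± 0.14) and plakoglobin, Jup (2.23 ± 0.13).

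Receptors of the VEGF pathway were high and the ligand gene Vegfa was low, while the ligand gene Pgf was higher than in stroma. Flt1, the decoy-like VEGF receptor, had 194 and 163 CPM in endothelial cells of KPPCN 1 and KPPCN 2 and 323, 625 and 599 in those of KPPC C3, D3 and H2, against 5.34 to 46.0 in stroma (4.43 ± 0.57, adjusted p = 0.000596). Flt4, the receptor for the lymphatic factors VEGF-C and VEGF-D, had 388 and 697 CPM in the KPPCN libraries and 499, 145 and 256 in the KPPC libraries (4.88 ± 0.38). The order of the libraries was opposite for these receptors: KPPCN 2 was lowest of the 4 fitted libraries for Flt1 and highest for Flt4. Kdr (3.87 ± 0.10) and the co-receptor Nrp2 (3.94 ± 0.16) were higher too, and Vegfa itself had 0 and 26.7 CPM in endothelial cells of the KPPCN libraries and 4.82 to 18.5 in those of the KPPC libraries, against 77.6 to 223 in stroma (-2.96 ± 0.22, adjusted p = 4.34e-05). Of 10 tested genes of the pathway 6 were higher and 1 lower.

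Notch genes were higher throughout: 8 of 8 tested of 12 listed, with a median of 2.92. The tip cell ligand Dll4 had 0 and 37.4 CPM in the KPPCN libraries and 74.6, 126 and 72.6 in the KPPC libraries, against 0.252 to 0.916 in stroma (3.82 ± 0.19), and the receptors Notch1 (3.68 ± 0.09) and Notch4 (3.61 ± 0.34) and the ligand Jag2 (3.00 ± 0.20) went with it. Of 13 tested tip cell and angiogenic genes all were higher than in stroma, with a median of 1.78, led by Trp53i11, the apelin receptor Aplnr (4.26 ± 0.57) and the adhesion molecule Mcam (4.22 ± 0.27). Aplnr differed most between libraries, with 0 and 16.0 CPM in KPPCN 1 and KPPCN 2 and 133, 319 and 389 in KPPC C3, D3 and H2. In the angiopoietin pathway Tie1 and the receptor phosphatase Ptprb (5.04 ± 0.20) were higher and the ligand Angpt1, made by perivascular cells, was lower (-1.24 ± 0.19); 3 of 4 tested genes were higher and 1 lower.

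Genes of arterial, capillary, venous and lymphatic endothelium were all present in the endothelial cells. Of 9 tested arterial genes 7 were higher, among them the gap junction gene Gja4 (4.49 ± 0.26), the transcription factor Mecom (4.33 ± 0.18) and the vasoconstrictor gene Edn1 (3.08 ± 0.41), and 2 were lower, Stmn2 (-2.03 ± 0.40) and the chemokine gene Cxcl12 (-1.46 ± 0.30). Of 7 tested capillary genes 5 were higher, including Gpihbp1, which carries lipoprotein lipase across capillaries, and the fatty acid carrier Fabp4 (2.77 ± 0.16), while the lipase gene Lpl itself was lower (-3.58 ± 0.32). Of 7 tested venous or activation genes 4 were higher, including Vwf, the clotting factor stored in endothelium, Lrg1 and the ephrin receptor Ephb4 (1.82 ± 0.09), and Vcam1 was lower (-1.78 ± 0.12). Of 4 tested lymphatic genes Prox1 (5.0 ± 0.43), Flt4 and Nrp2 were higher. Podoplanin, Pdpn, a lymphatic marker that fibroblasts also make, was lower than in stroma (-2.31 ± 0.38).

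Signalling through ALK1 and endoglin gave a mixed picture, with 7 of 17 tested genes higher and 7 lower. Eng, the endothelial co-receptor for BMP9, had 1552 and 945 CPM in the KPPCN libraries and 867, 1280 and 1070 in the KPPC libraries, against 28.6 to 98.0 in stroma (3.71 ± 0.31), and the target gene Id1 (2.68 ± 0.19) and the mediator Smad1 (2.06 ± 0.08) were higher, whereas the co-receptor Tgfbr3 (-1.92 ± 0.17) and the inhibitor Smad7 (-1.38 ± 0.13) were lower. Of 10 tested genes of the response to flow 6 were higher, including the nitric oxide synthase Nos3 (3.98 ± 0.11) and the caveolar gene Cav2 (2.66 ± 0.09), and 2 were lower, including Klf4 (-1.32 ± 0.27). Basement membrane genes, which encode the sheet beneath the vessel, were mostly higher, 9 of 14 against 2 lower: Col18a1 (2.51 ± 0.24), Col4a2 (2.25 ± 0.40) and Nid2 (2.11 ± 0.18) were higher and Sparc (-1.60 ± 0.35) and Lamb2 (-1.07 ± 0.13) lower. The mesenchymal list had 1 gene higher, the transcription factor Zeb1 (1.44 ± 0.18), and 12 of 14 lower, led by the collagen genes Col3a1 (-5.93 ± 0.32) and Col1a2 (-5.78 ± 0.34).

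**Figure D3:**
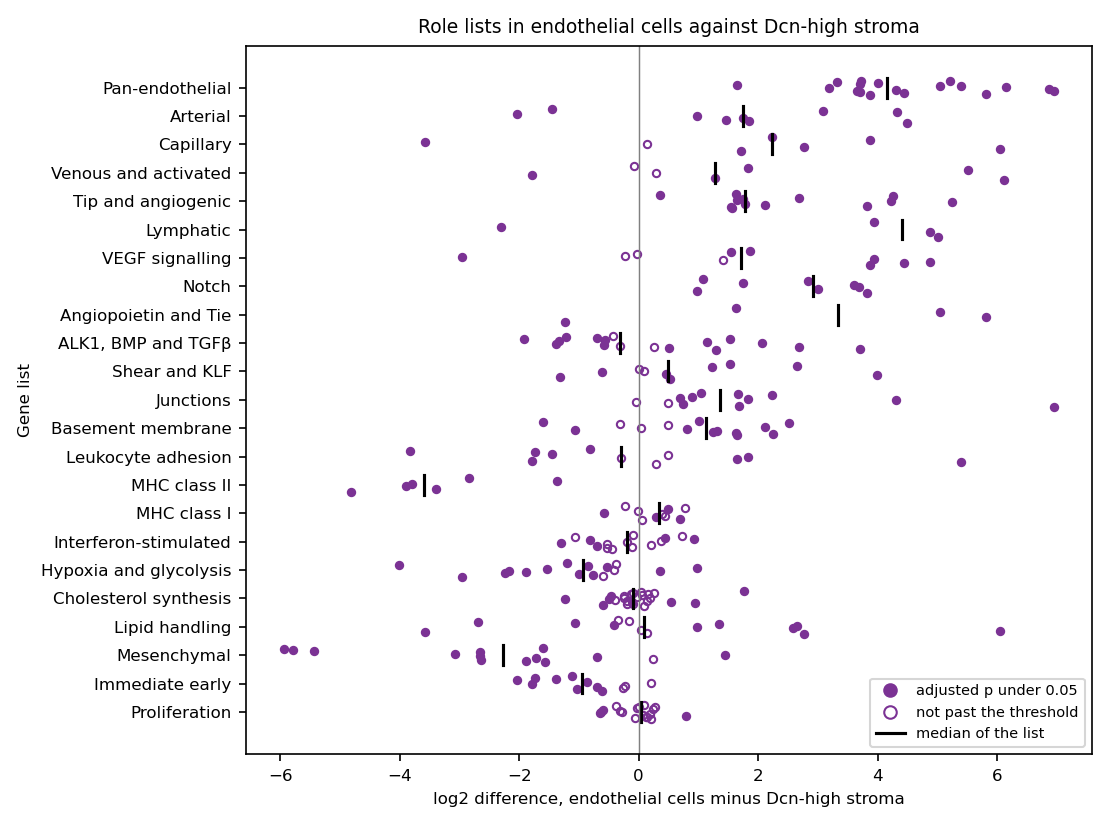
Log2 difference of each tested gene between endothelial cells and the Dcn-high stroma of the same tumours, by role list; filled points passed adjusted p under 0.05, open points did not, and black bars are list medians. Pan-endothelial, lymphatic, angiopoietin and Notch lists have medians of 4.15, 4.41, 3.33 and 2.92, and MHC class II and mesenchymal lists have medians of -3.59 and -2.26.

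Genes of antigen presentation split by class. All 6 tested MHC class II genes were lower in endothelial cells than in stroma, with a median of -3.59. Cd74, the invariant chain of class II molecules, had 0 and 53.4 CPM in endothelial cells of KPPCN 1 and KPPCN 2 and 17.3, 7.92 and 12.8 in those of KPPC C3, D3 and H2, against 179 to 577 in stroma (-4.82 ± 0.39, adjusted p = 6.35e-05), and H2-Ab1 (-3.90 ± 0.19) and H2-Eb1 (-3.80 ± 0.25) followed. Of 10 MHC class I genes 3 were higher, H2-D1 (0.69 ± 0.12), the immunoproteasome subunit Psmb9 (0.49 ± 0.12) and B2m (0.29 ± 0.08), and Tapbp was lower (-0.58 ± 0.10). The call of B2m was lost under 6 of 12 alternative settings, and those of Psmb9 and Tapbp under 2. Of 15 interferon-stimulated genes Bst2 (0.92 ± 0.12) and Ly6e (0.44 ± 0.09) were higher and Gbp2 (-1.30 ± 0.29), Ifi27 (-0.81 ± 0.09) and Irf7 (-0.70 ± 0.25) lower, the call of Irf7 being lost under 7 of 12 alternative settings and that of Ly6e under 2. Of 11 tested leukocyte adhesion genes 3 were higher, including Icam2, and 5 lower, including the chemokine genes Ccl2 (-3.83 ± 0.21) and Cxcl10 (-1.73 ± 0.30).

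Metabolic and stress genes were mostly level with stroma or below it. Of 16 genes of hypoxia and glycolysis 11 were lower, with a median of -0.93: hexokinase 2, Hk2, had 0 and 64.1 CPM in the KPPCN libraries and 55.2, 47.0 and 9.63 in the KPPC libraries, against 371 to 749 in stroma (-4.02 ± 0.24), and the prolyl hydroxylase gene Egln3 was lower as well (-2.23 ± 0.38). Ankrd37 (0.97 ± 0.14) and the vasoactive peptide gene Adm (0.36 ± 0.12) were the 2 higher ones, Adm with its call lost under 7 of 12 alternative settings. Of 24 tested genes of cholesterol synthesis and uptake 3 were higher, among them the sterol carrier Stard4 (1.76 ± 0.09) and Pmvk (0.95 ± 0.28, its call lost under 4 alternative settings), and 4 lower, among them Cyp51 (-1.24 ± 0.22), with a median of -0.10. Of 14 lipid handling genes 6 were higher, among them the HDL receptor Scarb1 (2.58 ± 0.23) and the cholesterol exporter Abcg1 (2.65 ± 0.23), and 4 lower, among them the desaturase Scd1 (-2.69 ± 0.23). Of 12 immediate early genes, which respond within minutes to stimulation or tissue handling, 9 were lower, led by Ier3 (-2.04 ± 0.14) and Egr1 (-1.78 ± 0.17). Of 18 proliferation genes Mcm3 (0.79 ± 0.18) was higher and 3 were lower, Ccnb1 (-0.65 ± 0.16), Ccnb2 (-0.62 ± 0.16) and Birc5 (-0.59 ± 0.15); these 3 calls were lost when libraries were scaled by their totals alone or KPPC H2 was left out, and that of Mcm3 without KPPC H2.

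Against all other barcodes of the same tumours, which add the tumour epithelium, 2154 of 11397 genes were higher (18.9%) and 2505 lower (22%) in endothelial cells. Leaving out KPPC C3, D3 or H2 lowered these counts to 1333 and 1542, 1364 and 1570, and 1202 and 1453. With the same floor of 100 CPM, the genes with the largest differences were those found against stroma, Emcn (6.79 ± 0.24), Cldn5 (6.55 ± 0.21) and Cd93 (6.44 ± 0.27) in front. Of the 15 leading genes 3 were not among the 15 leading genes against stroma: the Ras-interacting vascular gene Rasip1 (5.20 ± 0.11), Ptprb (5.14 ± 0.18) and the scavenger receptor Stab1 (5.16 ± 0.22). Stab1 had 3104 and 843 CPM in KPPCN 1 and KPPCN 2 and 632, 295 and 428 in KPPC C3, D3 and H2, so that both KPPCN libraries lay above the KPPC libraries. Of 10 MHC class I genes 7 were higher and 0 lower than in the rest, with a median of 1.03, and of 24 genes of cholesterol synthesis and uptake 2 were higher and 11 lower, with a median of -0.40, against -0.01 over all genes.

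Among themselves the endothelial cells of the KPPC tumours, which were similar in depth, fell into 4 clusters, described here by their leading genes without a test. One cluster of 141 cells was led by Fgl2, Ifi27l2a and Prox1, with 845 CPM of Prox1 against 5.47 in the other endothelial cells, and by Pard6g, Lbp, Cp, Sema3d, Fxyd6, Maf and Slc45a3; all 4 measured lymphatic genes (Prox1, Flt4, Pdpn and Nrp2) were at least 2-fold higher there, and it is called lymphatic-like. Of the interferon-stimulated list 7 of 15 genes were also at least 2-fold higher in it. A cluster of 109 cells was led by the placental growth factor gene Pgf, the tip cell peptide gene Apln (481 against 116 CPM), Nes and Gpihbp1, with 10 of 18 proliferation genes at least 2-fold higher. A cluster of 142 cells was led by the heparin-binding factor Ptn, Vwf (1469 against 364 CPM), Mgp, Slco2a1 and Ecm1. The largest, of 158 cells, was led by the mural gene Rgs5 (420 against 3.79 CPM) and the contractile genes Acta2 and Tagln, and 17 of its cells carried markers of other cell types, so that it stays unnamed. At a finer resolution of 1, a cluster of 51 cells was led by Rgs5 (891 against 4.76 CPM), Ndufa4l2, Pdgfrb, Des and Notch3. Of these cells 15 carried markers of other cell types. Their median depth was 15806 UMIs, against 9093.5 over all KPPC endothelial cells. The number of clusters depended on the resolution, with 2 at 0.3, 4 at 0.5 and 10 at 1; the lymphatic-like cluster kept its 141 cells at 0.3 and was split into 73 and 68 cells at 1. At 0.5 it held different shares of each library: 46.6% of the endothelial cells of KPPC C3, 6.17% of those of D3 and 21.6% of those of H2.

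Prox1 divided the cells of every library with enough of them in the same way. Cells with at least 1 Prox1 UMI per 10000, a division chosen after the values were seen, made up 1 of 3 endothelial cells of KPPCN 1 and 19 of 30 of KPPCN 2 (63.3%, exact 95% interval 43.9 to 80.1%). In the KPPC libraries they made up 85 of 189 in C3 (45.0%, 37.7 to 52.4%), 12 of 162 in D3 (7.41%, 3.89 to 12.6%) and 41 of 199 in H2 (20.6%, 15.2 to 26.9%). KPPCN 2 was thus above each KPPC library, with an interval that overlapped that of C3 alone. With every cell thinned to 1000 UMIs, a Prox1 UMI was found in 36.7% of the endothelial cells of KPPCN 2 and in 23.3, 5.59 and 12.6% of those of KPPC C3, D3 and H2, against 0 to 0.0962% of stroma cells, which gives the background. With 1 KPPCN library of 20 or more endothelial cells, this share has no test by genotype.

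Levels in the Prox1-positive and Prox1-negative cells show a lymphatic and a blood vascular part. Flt4 had 961 CPM in Prox1-positive and 88.1 in Prox1-negative cells of KPPCN 2, and 676 to 882 against 82.1 to 105 in the KPPC libraries. Pdpn followed, with 352 against 8.81 in KPPCN 2 and 258 to 296 against 6.60 to 35.6 in KPPC libraries. Cldn5 was also on the Prox1-positive side, with 1360 against 537 CPM in KPPCN 2 and 1845 to 2217 against 369 to 501 in KPPC libraries, and the venous and lymphatic regulator Nr2f2 had 624 against 79.2 in KPPCN 2. Blood vascular genes went the other way. Flt1 had 84.3 CPM in Prox1-positive and 343 in Prox1-negative cells of KPPCN 2, and 24.8 to 37.5 against 669 to 752 in KPPC libraries. Esam had 123 against 740 in KPPCN 2 and 78.3 to 98.7 against 960 to 1086 in KPPC libraries, and Sparc 716 against 8453 in KPPCN 2 and 752 to 1473 against 6717 to 8107 in KPPC libraries. The apelin gene Apln had 0 UMIs in the Prox1-positive cells of KPPCN 2 and KPPC H2 and 925 and 242 CPM in their Prox1-negative cells. Kdr, which both kinds of vessel carry, differed less, with 513 against 255 CPM in KPPCN 2 and 349 to 531 against 513 to 549 in KPPC libraries.

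**Figure D4:**
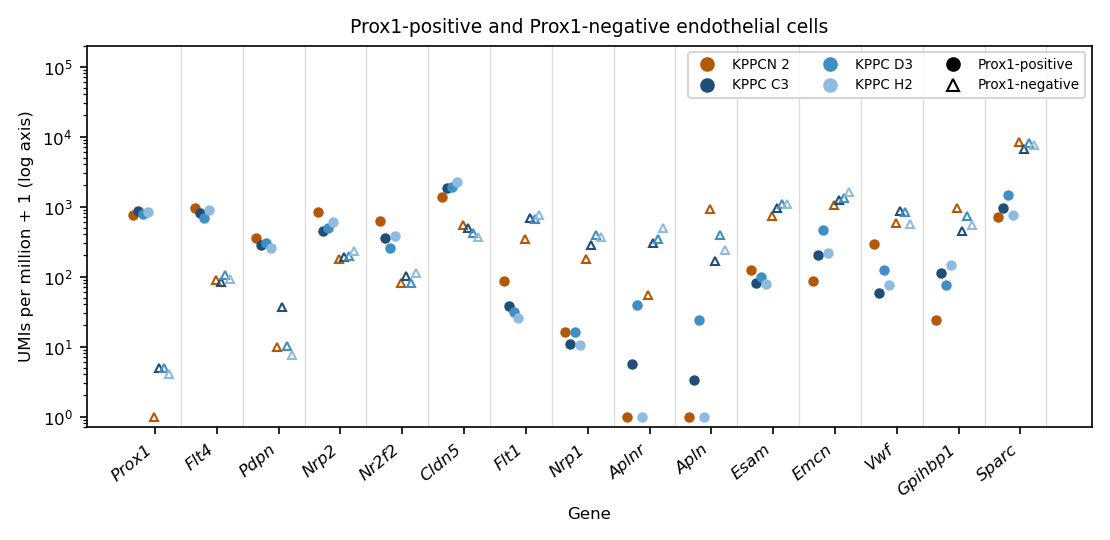
Summed CPM plus 1 (log axis) of 15 genes in the Prox1-positive (filled circles) and Prox1-negative (open triangles) endothelial cells of KPPCN 2 and the 3 KPPC libraries. Flt4, Pdpn, Nrp2, Nr2f2 and Cldn5 lie higher in the Prox1-positive cells and Flt1, Nrp1, Aplnr, Esam, Emcn, Vwf, Gpihbp1 and Sparc lower, in all 4 libraries.

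Between genotypes no gene passed the test in endothelial cells. The fit set KPPCN 2 alone against the 3 KPPC libraries, since KPPCN 1 had 3 cells, and so assumed that KPPCN libraries vary like the KPPC ones: 0 of 10365 genes were called (0%, limma, lowest adjusted p = 0.947), and 403 had an unadjusted p under 0.05. In counts simulated with the totals of these libraries the same fit recovered 16.5% of genes changed 2-fold and 84% of those changed 4-fold. The simulation gave every gene the same spread between libraries and changed no gene of low level. Real genes differ in spread, so these rates can overstate what the fit could find. Leaving out KPPC C3 gave 7 higher and 16 lower genes. No gene of 11256 was called for a difference between the genotype effect in endothelial cells and that in stroma (0%, limma, lowest adjusted p = 0.830, 539 genes with an unadjusted p under 0.05), the interferon list having a median difference of 1.06 there, with 12 of 15 genes higher, against 46.6% of all genes and a median of -0.04. In counts simulated in the same way, with the same limit, that fit recovered 1% of 2-fold and 72% of 4-fold changes. The lack of calls therefore does not show that the effects were alike. The values below are therefore levels in one KPPCN library beside 3 KPPC libraries.

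Among genes with at least 50 CPM in either group mean, interferon-stimulated genes took most of the 10 places with the smallest unadjusted p on the higher side. Irf7, a transcription factor of the interferon response, had 194 CPM in KPPCN 1 (1 UMI, exact Poisson interval 4.91 to 1081) and 368 in KPPCN 2 (309 to 435), and 56.1, 41.7 and 50.6 in KPPC C3, D3 and H2, a log2 difference of 2.67 ± 0.33 (limma, adjusted p = 0.947). KPPCN 2 was above each KPPC library, and in the stroma of the same tumours Irf7 had 116 and 196 CPM in the KPPCN libraries and 78.3 to 94.1 in the KPPC libraries. Rsad2, an antiviral enzyme, had 0 and 307 CPM in the KPPCN libraries and 36.2, 29.0 and 18.5 in the KPPC libraries (3.19 ± 0.53). Ifit3, an antiviral RNA-binding adaptor, had 0 and 211 CPM in the KPPCN libraries and 26.7, 9.50 and 11.2 in the KPPC libraries (3.35 ± 0.78). A value of 0 in KPPCN 1 lies within its detection limit given above. Others were Ifi44 (1.96 ± 0.36), the virus-tethering factor Bst2 (1.17 ± 0.23), Ifi204 (2.09 ± 0.42), Apol9b (2.29 ± 0.48), Trim30a (1.31 ± 0.28) and the class Ib gene H2-Q6 (2.01 ± 0.43), all with an adjusted p of 0.947.

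Read as a list, 11 of 15 interferon-stimulated genes were higher in KPPCN 2 than in all 3 KPPC libraries. The 2 genes lower than in all 3 were Ifi27 and Ly6c1. Of all genes 32.8% lay above and 36.3% below. Within the Prox1 classes Ly6c1 took the opposite order. It had 88.1 CPM in Prox1-positive cells of KPPCN 2, against 33.7, 75.9 and 7.64 in those of KPPC C3, D3 and H2. In Prox1-negative cells Ly6c1 had 713 CPM in KPPCN 2, against 597, 480 and 517. Ifi27 stayed below each KPPC library in both classes. The median log2 difference of the list was 1.51, against -0.03 over all genes, and 10 of the 15 had an unadjusted p under 0.05. MHC class I genes leaned the same way, with 8 of 10 above all KPPC libraries and 0 below and a median of 0.56. H2-K1 had 194 and 1943 CPM in the KPPCN libraries and 1019, 604 and 641 in the KPPC libraries (1.29 ± 0.36), and B2m 776 and 1628 against 805, 726 and 528 (1.15 ± 0.30), neither past the threshold. Single cells carried a large part of some of these genes: in KPPCN 2, 1 cell held 38 of 77 UMIs of Ifit1, 22 of 44 of Gbp2, 28 of 79 of Ifit3, 42 of 115 of Rsad2 and 26 of 138 of Irf7. Irf7 was seen in 53.3% of endothelial cells of KPPCN 2 and in 21.2, 25.3 and 31.7% of those of KPPC C3, D3 and H2, where 71.2% of stroma cells of KPPCN 2 and 49.9 to 60.7% of those of the KPPC libraries held an Irf7 UMI at their own depths. Thinned to 1000 UMIs, the Irf7 share was 16.7% in KPPCN 2 and 4.76, 6.21 and 4.52% in the KPPC libraries, against 17.6% and 5.84 to 8.29% in their stroma. At their own depths, Bst2 was seen in 80% of endothelial cells of KPPCN 2 and 82.1 to 85.7% of those of the KPPC libraries, and Ly6e in 86.7% and 95 to 97.4%. The order for Bst2 depended on depth. Its share was 20% in KPPCN 2 and 26.1 to 31.7% in the KPPC libraries at 1000 UMIs, and 62.1% and 41.4 to 56.1% at 2000 UMIs.

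The Prox1-positive share moved with these genes, and its part in them was not tested. Fits within each class, added after the data were seen and again with 1 KPPCN library, gave the following values. The fit in Prox1-positive cells alone had 19 cells in KPPCN 2 and 12 to 85 in the KPPC libraries, and it was not tried on simulated counts. Irf7 had 452 CPM in KPPCN 2, against 79.5, 45.6 and 87.8 in KPPC C3, D3 and H2 (2.39 ± 0.35). B2m (1.24 ± 0.21), Bst2 (1.21 ± 0.27) and Rsad2 (2.51 ± 0.51) were higher too. In all endothelial cells the differences were 2.67 ± 0.33 for Irf7, 1.17 ± 0.23 for Bst2 and 3.19 ± 0.53 for Rsad2. In Prox1-negative cells alone, 11 in KPPCN 2, Irf7 had 176 CPM in KPPCN 2 and 25.7, 41.4 and 40.6 in the KPPC libraries, and 14 of 15 genes of the interferon list had a positive log2 difference, with a median of 1.13 against -0.11 over all genes of that fit, and none was called. Edn1 was higher there, with 1567 CPM in KPPCN 2, against 281, 249 and 243 in the KPPC libraries (2.50 ± 0.31). Acta2, a contractile gene, was at 0 in KPPCN 2 and at 211 to 325 CPM in the KPPC libraries. In the same cells the mural markers Rgs5, Pdgfrb, Des and Notch3 were at 0 in KPPCN 2, where Rgs5 had 4.95, 439 and 81.3 CPM and Des 17.8, 77.2 and 20.8 CPM in the C3, D3 and H2 libraries of KPPC; the part of mural RNA in the Acta2 value was not tested.

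**Figure D5:**
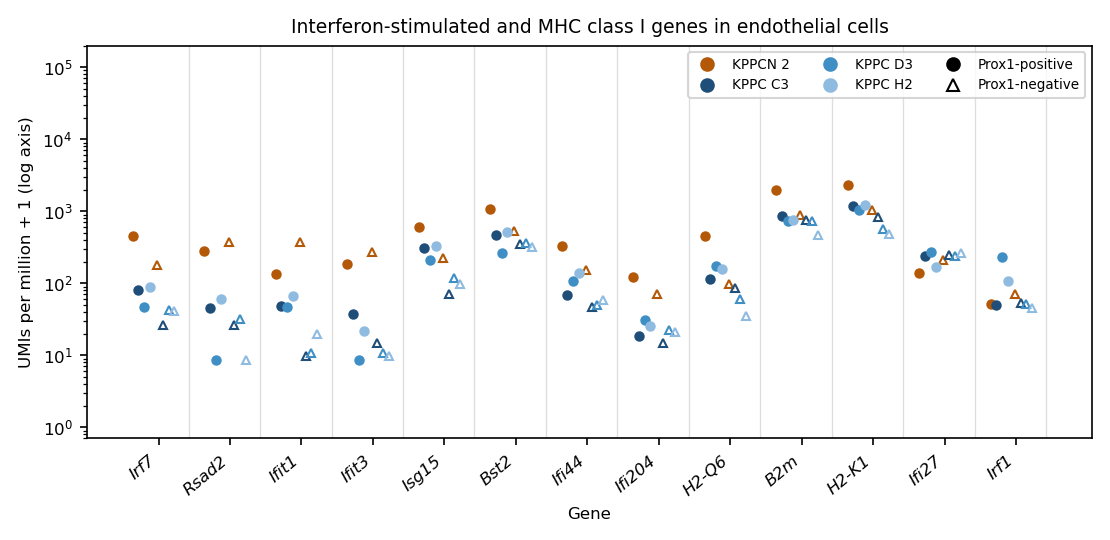
Summed CPM plus 1 (log axis) of interferon-stimulated and MHC class I genes in Prox1-positive (filled circles) and Prox1-negative (open triangles) endothelial cells. KPPCN 2 (orange) lies above the 3 KPPC libraries (blues) for every gene drawn in both kinds of cell, except Ifi27 in both and Irf1 in the Prox1-positive cells. The genes drawn are a selection, and Rsad2, Ifi44, Ifi204 and H2-Q6 were named for their small unadjusted p. Among list genes not drawn, Gbp2 and Iigp1 had 65.1 and 199 CPM in Prox1-positive cells of KPPCN 2, below the 176 and 210 of KPPC H2. KPPCN 1, with 3 endothelial cells, is not drawn.

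Promoter windows of these genes are shown because interferon acts through a short element, the ISRE, whose core holds a repeat of the letters GAAA. The windows run from 250 bases before to 50 bases after the start of the gene (RefSeq, GRCm38.p6) and are written 5′ to 3′ on the strand of the gene, with matches to GAAANNGAAA or its reverse complement TTTCNNTTTC in capitals (overlapping matches are joined). They are Rsad2 (chr12:26456403-26456702, minus strand), Ifit3 (chr19:34583279-34583578, plus strand) and Bst2 (chr8:71537423-71537722, minus strand).
Rsad2: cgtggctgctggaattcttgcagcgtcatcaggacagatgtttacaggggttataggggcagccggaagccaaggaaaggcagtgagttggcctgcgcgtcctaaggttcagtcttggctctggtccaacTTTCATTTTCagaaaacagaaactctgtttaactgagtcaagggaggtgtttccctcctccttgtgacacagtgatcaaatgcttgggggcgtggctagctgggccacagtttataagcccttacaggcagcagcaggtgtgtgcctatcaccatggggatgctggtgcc
Ifit3: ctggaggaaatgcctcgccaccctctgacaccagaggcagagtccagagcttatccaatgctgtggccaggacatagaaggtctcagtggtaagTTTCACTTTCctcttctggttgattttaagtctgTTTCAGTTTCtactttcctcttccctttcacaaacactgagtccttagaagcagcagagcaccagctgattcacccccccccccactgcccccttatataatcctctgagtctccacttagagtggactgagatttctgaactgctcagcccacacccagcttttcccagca
Bst2: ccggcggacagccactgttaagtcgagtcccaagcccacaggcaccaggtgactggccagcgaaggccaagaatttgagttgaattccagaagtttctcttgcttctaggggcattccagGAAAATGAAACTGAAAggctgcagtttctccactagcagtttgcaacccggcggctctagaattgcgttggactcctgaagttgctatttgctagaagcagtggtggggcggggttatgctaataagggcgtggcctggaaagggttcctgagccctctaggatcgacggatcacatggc
The Ifit3 and Bst2 windows hold 2 matches each and the Rsad2 window 1. A match on either strand occurs in 1131 of 32851 promoter windows (3.44%), in 7 of the 10 listed interferon genes with a window (70%) and in 5 of 8 of the 10 genes named above (62.5%). The windows of Irf7, Ifi44 and H2-Q6 hold none, which says only that these letters are not in this stretch.

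With the same floor of 50 CPM, the 10 genes with the smallest unadjusted p on the lower side held both vascular and epithelial genes. Slco2a1, a prostaglandin transporter of endothelium, had 0 and 123 CPM in the KPPCN libraries and 349, 370 and 493 in the KPPC libraries (-1.77 ± 0.32). Clu had 776 and 360 CPM in the KPPCN libraries and 899, 1003 and 1081 in the KPPC libraries (-1.56 ± 0.23). KPPCN 2 lay below each KPPC library in both. Srgn (-1.81 ± 0.36), Tspan7 (-2.50 ± 0.50), the protease gene Adamts9 (-1.53 ± 0.29) and the lipid phosphatase Plpp3 (-1.51 ± 0.32) were further members, none past the threshold. Krt19 (-2.59 ± 0.42), Krt18 (-1.63 ± 0.33), Tff2 (-3.52 ± 0.65) and Dmbt1 (-3.20 ± 0.66) are genes of ductal and mucous epithelium. Dmbt1 had 10.7 CPM in endothelial cells and 12.0 in stroma of KPPCN 2, and 200, 131 and 85.5 in endothelial cells and 197, 138 and 98.8 in stroma of KPPC C3, D3 and H2, much the same in both kinds of cell. In all other barcodes the 7 epithelial markers summed to 2073 and 1266 CPM in the KPPCN libraries and 4267 to 7001 in the KPPC libraries; the part of RNA from epithelium in these 4 genes was not tested.

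Lists of vessel growth showed no call by genotype either. Of 14 basement membrane genes 9 were lower in KPPCN 2 than in every KPPC library and 2 higher (median -0.67), and of 13 tip cell and angiogenic genes 7 were lower and 3 higher (median -0.67). Of these 9 lower genes only Lama5 kept this order in both Prox1 classes. Col4a1 had 1329 CPM in Prox1-positive cells of KPPCN 2, against 886 to 1017 in those of the KPPC libraries. In Prox1-negative cells it had 2721 CPM, against 3121 to 3555. Col4a2, Nid2, Hspg2 and Col18a1 were likewise higher in the first class and lower in the second. Sparc was lower in the first class and higher in the second, with 8453 CPM against 6717 to 8107. Col15a1 was lower in the first class alone and Nid1 in the second alone, each within the KPPC range in the other. Flt1 (-1.68 ± 0.48) and Aplnr (-3.72 ± 0.82) were on the lower side and Flt4 (1.26 ± 0.74), Nrp2 (1.04 ± 0.35), Prox1 (1.45 ± 1.29), Pdpn (1.66 ± 1.22) and Nr2f2 (1.40 ± 0.65) on the higher side, all with an adjusted p of 0.947. The Prox1-positive share also differed between these libraries, and its part in these values was not tested. In Prox1-positive cells alone the differences were 0.16 for Flt4, 0.62 for Nrp2, 0.29 for Pdpn, 0.75 for Nr2f2 and 1.17 for Flt1, and Aplnr had 0 CPM in KPPCN 2 and 4.59 (C3), 38.0 (D3) and 0 (H2) CPM in the KPPC libraries. In Prox1-negative cells alone they were -0.16 for Flt4, -0.30 for Nrp2, -0.32 for Pdpn, -0.35 for Nr2f2, -1.12 for Flt1 and -2.81 for Aplnr. None of these passed the threshold in either class, and Flt1 and the 4 genes on the higher side had opposite signs in the 2 classes. Kdr had a difference of -0.32 ± 0.23, and 0.11 in Prox1-positive cells. Of 22 tested genes of cholesterol synthesis and uptake 8 were above and 7 below all KPPC libraries (median -0.08). Nsdhl had 194 CPM in KPPCN 1 (1 UMI) and 5.34 in KPPCN 2 (2 UMIs), and 17.3, 14.8 and 13.6 in the KPPC libraries (-1.03 ± 0.46, adjusted p = 0.947); which exons are removed is unknown here, and Nsdhl was not read as a check of genotype. The libraries also differed in transcripts of the sex chromosomes. Xist had 0 UMIs in endothelial cells of both KPPCN libraries and 934 and 1089 CPM in KPPC C3 and D3, and Ddx3y had 61.4 in KPPCN 2 and 77.0 in KPPC H2; the part of this in the genotype values was not tested.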

How the data were processed

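Dissociated, CD45-depleted tumours of 2 KPPCN and 3 KPPC mice were profiled with 10x 3′ V3 chemistry, per the labels' protocols. Per the submitters' processing notes, Cell Ranger 2.1.0, Seurat 3.0.2, R 3.5.1 and the build GRCm38 were used. The deposited values are the natural log of 1 plus UMIs per 10000 for each cell, as the values show: dividing by each cell's smallest step gave whole UMIs for 100% of values (within 0.01 UMI). Since the deposited unit is a log, no count model was used. Recovered UMIs were summed per library and cell group, scaled by a trimmed mean, filtered (at least 10 UMIs at the median total, 15 over all libraries) and tested as log2(CPM + 5) with limma 3.58.1 in R 4.3.3 (precision weights, two-sided, Benjamini-Hochberg adjusted p under 0.05), which understates fold changes of low genes. Libraries needed 20 endothelial cells. The labels do not say more of the separateness of the tumours than their mice, and p-values rest on the spread between these libraries, which limma pools over genes. Clusters were made with scanpy 1.11.5, and doublets were not called beyond the rule's Dcn and epithelial limits. Members and lists were chosen with earlier results of these data known. Named genes were the 15 largest called differences among genes with at least 100 CPM in the endothelial cells of every fitted library. Between genotypes they were the 10 smallest p per direction among genes with at least 50 CPM in either group mean. Called list members with the largest differences were named too. The main fits were tested on simulated data, and those within the Prox1 classes were not. Alternatives covered scaling, pseudocount, filter, weights, depth, thresholds and each library left out. One of the named genes is not reported here.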

Additional observations from a re-analysis of the deposited data

Results flagged for a closer look

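The KPPCN libraries list genes that were not analysed here in the KPPC libraries, and 8 of them from the endothelial lists were, in the endothelial cells of KPPCN 2, above both the limit that a count of 0 allows and the level in its other barcodes (Poisson intervals apart). These were Esm1 (98.0 CPM, in 3 cells), a proteoglycan of tip cells, the kinase gene Bmx (56.7, in 7 cells), the transcription factor genes Erg (41.3, in 11 cells) and Tal1 (38.7, in 9 cells), Cd300lg (23.2, in 3 cells), Bst1 (23.2), the arterial connexin gene Gja5 (15.5) and the adhesion molecule gene Madcam1 (12.9). They have no KPPC values beside them and no comparison by genotype. CPM in this paragraph are taken over all genes listed in the KPPCN libraries. Cxcr4 was also above that limit, at 12.9 CPM in 4 cells, but its interval overlapped that of the other barcodes, at 7.51 CPM.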

How the results depend on the processing

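No paired analysis was run between genotypes, since the labels give no pairing of KPPC with KPPCN mice. The KPPC columns also carry no replicate number. Against the rest and stroma the tumour was the block; with no replicate block the counts were 1967 higher and 2090 lower against the rest, and 2367 and 2906 against stroma. Of the summary values 103 kept their direction and size class and 23 moved. Scaling by totals gave 4427 higher genes against stroma. Leaving out libraries in turn gave 0 to 7 higher and 0 to 16 lower genes by genotype (7 and 16 without KPPC C3), and 1202 to 2465 higher and 1453 to 3048 lower against the rest. Thinning to 1000 UMIs gave 1001 and 1475 against the rest, 849 and 1036 against stroma, 5 lower genes by genotype and 1 lower for the difference between cell kinds. Prox1-positive cells alone, added after the data were seen, gave 14 and 24 genes by genotype and 7 and 6 for that difference, and Prox1-negative cells 1 and 1. The difference in the share of cells with a Prox1 UMI was 22.9 points at 1000 UMIs, 32.8 at 2000 and 36.3 unthinned. Reversed signs were Trim30a by genotype (-3.70) and Ifit1 for the difference between cell kinds (-1.06) under thinning; Prox1 (-0.21), Flt1 (1.17) and Kdr (0.11) by genotype and Aplnr against stroma (-0.61) in Prox1-positive cells; and Flt4 (-0.16), Pdpn (-0.32), Nrp2 (-0.30) and Nr2f2 (-0.35) by genotype in Prox1-negative cells. The cause was not tested. Shares without barcodes holding leukocyte UMIs were not run, since only 1 of 8 listed leukocyte genes, Lyz2, was measured in all 3 KPPC libraries. The 3 endothelial cells of KPPCN 1 and the 1 KPPCN library in the fits limit every genotype value.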

Other observations

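Further lymphatic genes, not measured in all 3 KPPC libraries and read here in KPPCN 2 alone, were abundant in its endothelial cells. Ccl21a, the chemokine of lymphatic vessels that guides dendritic cells, had 12718 CPM in endothelial cells of KPPCN 2 (4931 UMIs in 17 of 30 cells), against 6.76 in all other barcodes. The lymphatic genes Mmrn1 (1300 CPM, in 17 cells), Lyve1 (1184, in 19 cells) and Reln (266, in 16 cells) were found in a similar number of cells. The vessel-destabilising ligand Angpt2 had 289 CPM and its receptor Tek 51.6. CPM of the genes in this paragraph are likewise taken over all genes listed in the KPPCN libraries.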
